A study of Mus musculus with 9 samples.

Results

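The genes described here are Arc, the Homer genes Homer1, Homer2 and Homer3, and the Polo-like kinase genes Plk2, Plk3 and Plk5, chosen by symbol. All 7 were found once in each of the authors' 2 deposited tables, which list 24015 genes each. RNA was measured in the dissected dentate gyrus of 9 C57BL/6 mice aged 8 weeks, with 3 mice labelled E0, 3 labelled E1 and 3 labelled E4 and 1 library per mouse. As background to the study, E0 mice were taken before, and E1 and E4 mice 1 h and 4 h after, electroconvulsive stimulation, which makes the granule neurons of the dentate gyrus fire together. The labels of this RNA series are marked WT in the title and name no agent or sex, and what the number after E counts is not written there. No values per mouse were used here, so each value carries the standard error (SE) of the authors' fit over 3 mice a group and no spread between single mice is shown.

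Neurons that fire more than usual scale their excitatory synapses down, and the products of Arc, Homer1 and Plk2 are known for acting in that response. Arc protein gathers endophilin and dynamin at the spine and takes AMPA receptors off the surface. Long Homer proteins tie group I metabotropic glutamate receptors to Shank scaffolds and to calcium stores, while the short form Homer1a, made from the Homer1 gene after activity, lacks the coiled coil and breaks those ties. Plk2 phosphorylates the spine protein SPAR, the product of Sipa1l1, and so leads to its breakdown. Plk3 is a stress-induced kinase of the same family, and Plk5 is a brain-enriched relative without kinase activity that takes part in neurite growth.

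Promoter windows show what stands before the genes that rose together below. The RefSeq windows of 250 bases before to 50 after the gene start (GRCm38.p6) matched 6 of the 7 genes, with 8 windows in all; Arc was not matched. The windows of Homer1, Plk2 and Plk3 are shown because these genes rose in both comparisons, and that of Plk5 because it fell most in E4. Those of Homer2, which fell less in E4, and of Homer3, which rose in E4 only, are left out. This choice was made after the values were seen. They lie at chr13:93303507-93303806 (plus strand), chr13:110394794-110395093 (plus), chr4:117133914-117134213 (minus) and chr10:80356209-80356508 (plus). Capitals mark TGACG or its reverse complement CGTCA, the core of the cAMP response element (CRE), to which CREB is known to bind; the gene start follows base 250.
Homer1: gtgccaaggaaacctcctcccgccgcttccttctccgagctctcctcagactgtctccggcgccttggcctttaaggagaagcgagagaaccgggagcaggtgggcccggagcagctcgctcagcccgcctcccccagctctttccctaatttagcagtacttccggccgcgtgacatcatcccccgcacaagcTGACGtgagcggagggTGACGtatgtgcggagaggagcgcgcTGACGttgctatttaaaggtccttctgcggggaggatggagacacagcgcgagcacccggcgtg
Plk2: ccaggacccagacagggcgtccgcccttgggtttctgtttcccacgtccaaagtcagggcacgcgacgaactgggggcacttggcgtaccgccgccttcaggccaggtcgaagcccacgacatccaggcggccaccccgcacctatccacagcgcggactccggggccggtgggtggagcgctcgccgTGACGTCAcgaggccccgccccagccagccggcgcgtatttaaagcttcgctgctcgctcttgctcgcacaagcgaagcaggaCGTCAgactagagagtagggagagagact
Plk3: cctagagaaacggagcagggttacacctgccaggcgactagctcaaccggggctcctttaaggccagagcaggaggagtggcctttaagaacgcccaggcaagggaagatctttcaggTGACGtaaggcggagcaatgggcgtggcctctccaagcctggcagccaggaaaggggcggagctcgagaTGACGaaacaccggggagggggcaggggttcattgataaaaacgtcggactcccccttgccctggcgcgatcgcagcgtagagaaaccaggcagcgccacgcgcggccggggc
Plk5: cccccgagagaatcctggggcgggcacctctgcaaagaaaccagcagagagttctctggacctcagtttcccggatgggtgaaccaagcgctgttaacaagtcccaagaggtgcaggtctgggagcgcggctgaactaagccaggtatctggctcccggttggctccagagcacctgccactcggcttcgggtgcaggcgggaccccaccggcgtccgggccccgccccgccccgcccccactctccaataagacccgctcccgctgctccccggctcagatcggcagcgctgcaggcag
Homer1 held 3 CRE cores in this window, starting 56, 40 and 14 bases before the gene start, and none in its second window. Plk2 held 3, of which 2 overlap in the full palindrome TGACGTCA at 62 bases before the start, while the other lies 22 bases into the gene. Plk3 held 2, at 132 and 63 bases before the start. The windows of Homer2, Homer3 and Plk5 held none. Over all 32851 windows of the same length, 20.8% held at least 1 core on either strand, 5.01% at least 2, 1.03% at least 3, and 1.79% held the full TGACGTCA. Of the other motifs searched on both strands, the NPAS4 core TCGTG (16.0% of all windows) matched in Plk2 and in 1 window of Homer2, and TATAAA (13.6%) in the other window of Homer2. The AP-1 site TGANTCA (7.81%), the CArG box (1.63%), GCGTGGGCG (0.612%) and GCGGGGGCG (2.91%) matched in none of the 8 windows. A match is a description of letters and shows no binding.

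The libraries differed in depth, and the E1 libraries stand apart. As approximated from genes with a single read, E1 libraries held about 1940000 to 4760000 reads in genes, E4 libraries 10020000 to 13550000 and E0 libraries 6140000 to 10960000. For genes averaging 50 counts or more, the median SE was 0.17 for E1 and 0.135 for E4 in the authors' deposited tables. In that for E1, 31 such genes were called raised while their mean count in the table for E4 was below 1; none of the 7 genes is among them. All 10 granule neuron markers were well read, with mean counts of 607 to 1640 for E1 and 1640 to 3320 for E4 in the authors' deposited tables. In E1, 8 of the 10 were lowered and 2 raised, and their summed level was 9407 in E1 mice and 13770 in E0 mice. Of 8 interneuron markers 6 were raised in E1 (summed level 4641 in E1 mice and 2706 in E0 mice), and of 7 astrocyte markers 4 were lowered (30880 in E1 mice and 34180 in E0 mice). In E4 the summed levels were 23830 in E4 mice and 26070 in E0 mice for granule neurons (4 of 10 raised, 4 lowered), 6080 in E4 mice and 5099 in E0 mice for interneurons (2 of 8 raised, 6 not called, median log2 fold change -0.09), and 62690 in E4 mice and 64660 in E0 mice for astrocytes (1 of 7 lowered, 6 not called). No marker of these lists was at 0. The part of these shifts in the results below was not tested. In bulk tissue a change in the number of cells of a type and a change in marker RNA per cell cannot be told apart.

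The comparison of E1 with E0 asks what had changed at the earlier time. Arc, Homer1, Plk2 and Plk3 rose, while Homer2, Homer3 and Plk5 were not called. Calls rest on an adjusted p below 0.05 in the authors' fit, by which 4 of the 7 were raised and none lowered; of all 15660 genes tested 35.5% were called, 20.6% raised and 15.0% lowered. The rises spanned 4.96-fold for Plk3 to 101-fold for Arc, and the paralogs within a family differed widely.

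Arc had a mean of about 13810 normalised counts in E1 mice, against 137.3 in E0 mice, as computed from the mean count and fold change of the authors' deposited table. This rests on about 27200 reads in the E1 libraries and 702 in the E0 libraries. The rise was 6.65 ± 0.14 on the log2 scale (SE), or 101-fold with a 95% interval of 83.0 to 122, and its adjusted p is listed as 0 in the authors' deposited table. The test statistic of Arc was the highest of all genes there, and its log2 fold change ranked 17 of the 9993 genes averaging 50 counts or more.

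Homer1, the gene of the activity-induced short form, had about 5632 normalised counts in E1 mice, against 286.7 in E0 mice, from about 11100 and 1460 reads. It rose 19.6-fold (4.30 ± 0.10, 95% interval 17.1 to 22.5, adjusted p listed as 0) in the authors' deposited table. The table has 1 row for the gene, and GENCODE lists 12 Homer1 transcripts, so the short and long forms were not separated. Homer2, a constitutive long Homer, had 280.5 in E1 mice and 324.6 in E0 mice, and its log2 fold change of -0.21 ± 0.14 was not called (95% interval -0.49 to 0.06, adjusted p = 0.25) in the authors' deposited table. Homer3, another long Homer and best known from cerebellar Purkinje neurons, had 162.5 in E1 mice and 138.2 in E0 mice, a log2 fold change of 0.23 ± 0.22 (95% interval -0.20 to 0.66, adjusted p = 0.445) in the authors' deposited table. The intervals of Homer2 and Homer3 end far below the rise of Homer1.

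Plk2 had about 6593 normalised counts in E1 mice, against 644.8 in E0 mice, from about 13000 and 3290 reads. It rose 10.2-fold (3.35 ± 0.10, adjusted p = 2.48e-238) in the authors' deposited table, and its test statistic ranked 8 by size among all genes. Plk3 was rarely read, with 73.63 normalised counts in E1 mice and 14.84 in E0 mice, or about 145 and 75.8 reads. It rose 4.96-fold (2.31 ± 0.32, 95% interval 3.24 to 7.61, adjusted p = 3.81e-12) in the authors' deposited table. Counting error alone would give Plk3 an SE of about 0.20, as approximated from these reads, beside the deposited SE of 0.32. The sources of that error were not tested. Plk5 had 257.7 in E1 mice and 226.5 in E0 mice, and its log2 fold change of 0.19 ± 0.17 was not called (95% interval -0.15 to 0.52, adjusted p = 0.435) in the authors' deposited table.

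**Figure D1:**
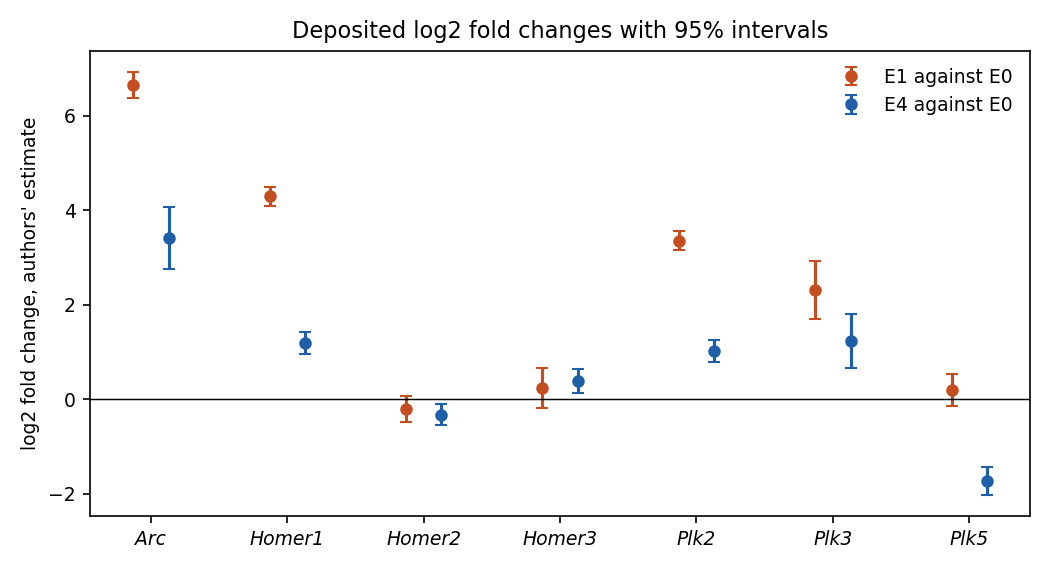
Log2 fold change of each gene in E1 against E0 (orange) and E4 against E0 (blue), as the authors estimated it over 3 mice a group, with bars for the 95% interval. Arc, Homer1, Plk2 and Plk3 lie above 0 in both, lower in E4 than in E1, while Plk5 lies at 0.19 in E1 and at -1.72 in E4.

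The comparison of E4 with E0 asks what differed at the later time. Arc, Homer1, Plk2 and Plk3 were still raised, Homer3 was raised slightly, and Homer2 and Plk5 were lowered, Plk5 to less than 31% of its E0 level. Thus 5 of the 7 were raised and 2 lowered; of all 14455 genes tested 39.0% were called, 20.7% raised and 18.3% lowered. Both comparisons use the same E0 libraries, so their values are given side by side and not as independent evidence.

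Arc had about 4074 normalised counts in E4 mice, against 382.3 in E0 mice, and rose 10.7-fold (3.41 ± 0.33, 95% interval 6.77 to 16.8, adjusted p = 6.55e-23) in the authors' deposited table. That error was larger than those of all 500 genes nearest in mean count, whose median SE was 0.09. Computed from mean count and fold change, the E0 libraries held about 1030 reads of Arc by the table for E4 and about 702 by that for E1, although both use the same E0 libraries. These levels and reads inherit the shrinkage and the error of the fold changes. With the E0 level of the table for E1, an alternative chosen after the data were seen, Arc rose 16.2-fold in E4 (4.02 on the log2 scale).

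**Figure D2:**
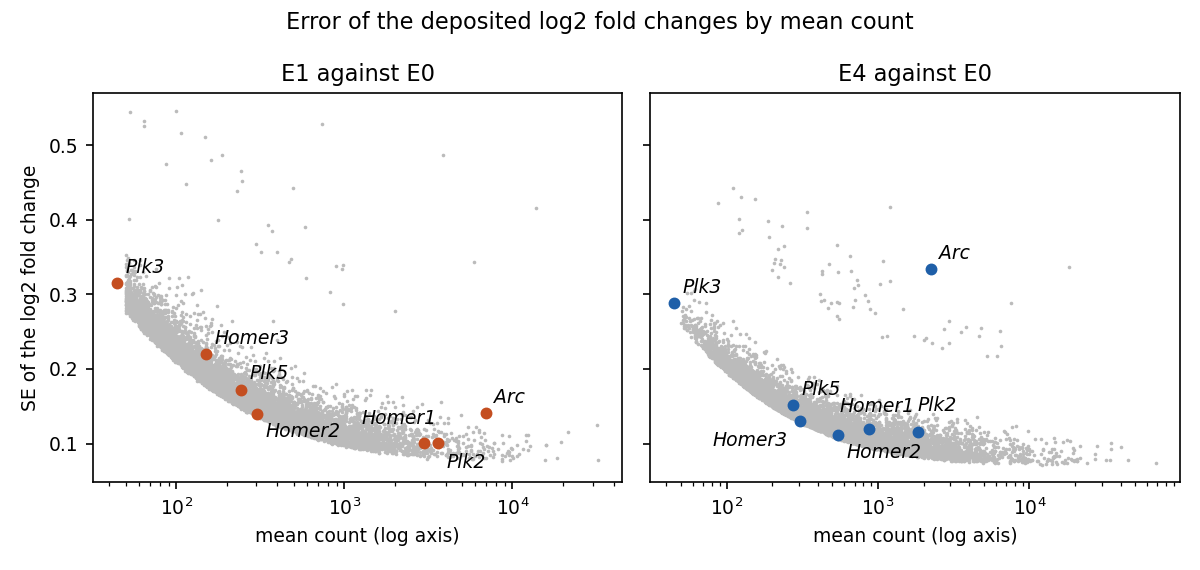
SE of the log2 fold change against mean count (log axis) in the tables for E1 (left) and E4 (right), with the 7 genes coloured and other genes averaging 50 counts or more in each table in grey. Arc stands at an SE of 0.33 in E4, above the band of genes of like count, and Plk3 lies left of the grey points, which start at 50 counts.

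Homer1 had 1214 normalised counts in E4 mice, against 534.7 in E0 mice, and rose 2.27-fold (1.18 ± 0.12, adjusted p = 2.78e-21) in the authors' deposited table. Homer2 fell to 486.1 in E4 mice, against 610.7 in E0 mice, which is 79.6% of the E0 level (-0.33 ± 0.11, adjusted p = 0.0104) in the authors' deposited table. Homer3 had 343.3 in E4 mice and 264.5 in E0 mice and rose 1.30-fold (0.38 ± 0.13, adjusted p = 0.0128) in the authors' deposited table. The changes of Homer2 and Homer3 are small beside that of Homer1, and neither passes an adjusted p of 0.01 as deposited. The Homer3 call was also lost when fold changes were centred on the median of 12 reference genes (0.26, adjusted p = 0.101), under which Homer2 stood at -0.44 (adjusted p = 0.000325). Antisense exons of the RNA helicase gene Ddx49 cover 25.4% of the exon bases of Homer3, and strand use in counting was not given in the sources used here. Ddx49 stood at 0.18 ± 0.15 in E4 (adjusted p = 0.369) in the authors' deposited table.

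Plk2 had 2444 normalised counts in E4 mice, against 1206 in E0 mice, and rose 2.03-fold (1.02 ± 0.12, adjusted p = 3.41e-17) in the authors' deposited table. Plk3 had 63.14 in E4 mice and 26.93 in E0 mice and rose 2.35-fold (1.23 ± 0.29, adjusted p = 0.000111) in the authors' deposited table. Plk5 went the other way from its relatives, with 128 normalised counts in E4 mice and 422.9 in E0 mice, from about 447 and 1140 reads. It fell to 30.3% of the E0 level (-1.72 ± 0.15, a fold of 0.303 with a 95% interval of 0.246 to 0.372, adjusted p = 2.61e-28) in the authors' deposited table. Counted from the lowest log2 fold change, Plk5 ranked 51 of the 11104 genes averaging 50 counts or more.

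The difference between E4 and E1 was tested for each of 12769 genes by subtracting the deposited log2 fold change in E1 from that in E4 and dividing by the joint SE. Of the 7 genes 5 were lower in E4 than in E1 and none higher; of all genes 36.7% were called, 19.0% lower and 17.7% higher. Arc dropped by 3.24 ± 0.36 on the log2 scale (adjusted p = 2.42e-17), which is a 9.44-fold smaller fold change. With the E0 level of the table for E1, as above, Arc dropped by 2.64 (6.22-fold smaller), less than Homer1. Homer1 dropped by 3.11 ± 0.16 (8.65-fold smaller, adjusted p = 5.88e-84) and Plk2 dropped by 2.34 ± 0.15 (5.05-fold smaller, adjusted p = 2.01e-49). Plk3 dropped by 1.08 ± 0.43 (2.12-fold smaller, adjusted p = 0.0335). Plk5 dropped by 1.91 ± 0.23 (3.76-fold smaller, adjusted p = 3.34e-15), but from no call in E1 to a fall in E4, whereas the other 4 rose in both. For Homer2 the difference was -0.12 ± 0.18 (95% interval -0.47 to 0.23, adjusted p = 0.646) and for Homer3 0.14 ± 0.26 (95% interval -0.36 to 0.64, adjusted p = 0.704).

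**Figure D3:**
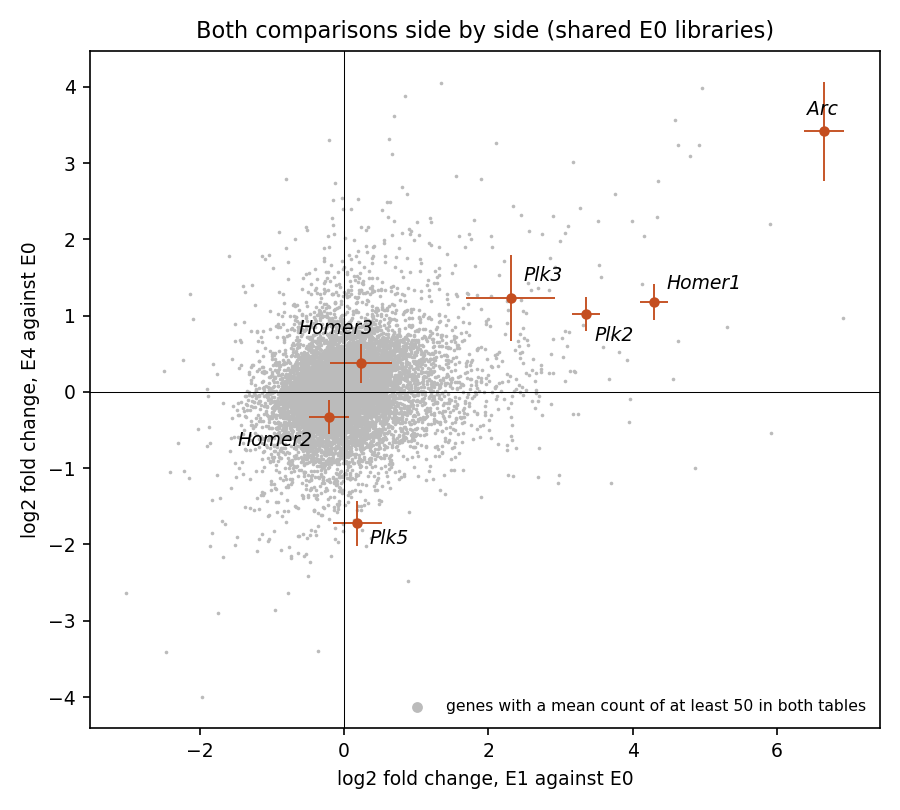
Log2 fold change in E4 against E0 (vertical) by that in E1 against E0 (horizontal) for the 7 genes (orange, with 95% intervals) and for genes averaging 50 counts or more in each table (grey). Both axes share the E0 libraries. Arc lies at the right edge with 6.65 and 3.41, and Plk5 lies below 0 on the vertical axis only.

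To compare levels between genes, mean counts were divided by the length of all annotated exons of the gene (GENCODE M21), and the table for E1 was put on the scale of that for E4 through the shared E0 libraries. The tables were normalised separately and the exons that the authors counted were not given in the sources used here, so these levels are approximate, and no spread over mice can be attached to them. In E0 the order was Plk2 with 271 normalised counts per kb, Plk5 with 160, Arc with 84.9, Homer3 with 75.9, Homer2 with 48.6, Homer1 with 45.2 and Plk3 with 11.1. On this scale Homer2 and Homer1 were nearly level in E0. The same exon length was used for a gene in all groups, although the short and long Homer1 forms were not separated. In E1 Arc led with 8540 per kb, followed by Plk2 with 2770, Homer1 with 889, Plk5 with 182, Homer3 with 89.3, Plk3 with 55.0 and Homer2 with 42.0. In E4 Arc stood at 1330, Plk2 at 544, Homer1 at 101, Homer3 at 99.8, Plk5 at 47.8, Homer2 at 38.5 and Plk3 at 24.9. Homer1 made up 26.6% of the summed Homer level per kb in E0, 87.1% in E1 and 42.2% in E4. Plk5 made up 36.2% of the sum of Plk2, Plk3 and Plk5 in E0, 6.05% in E1 and 7.75% in E4.

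**Figure D4:**
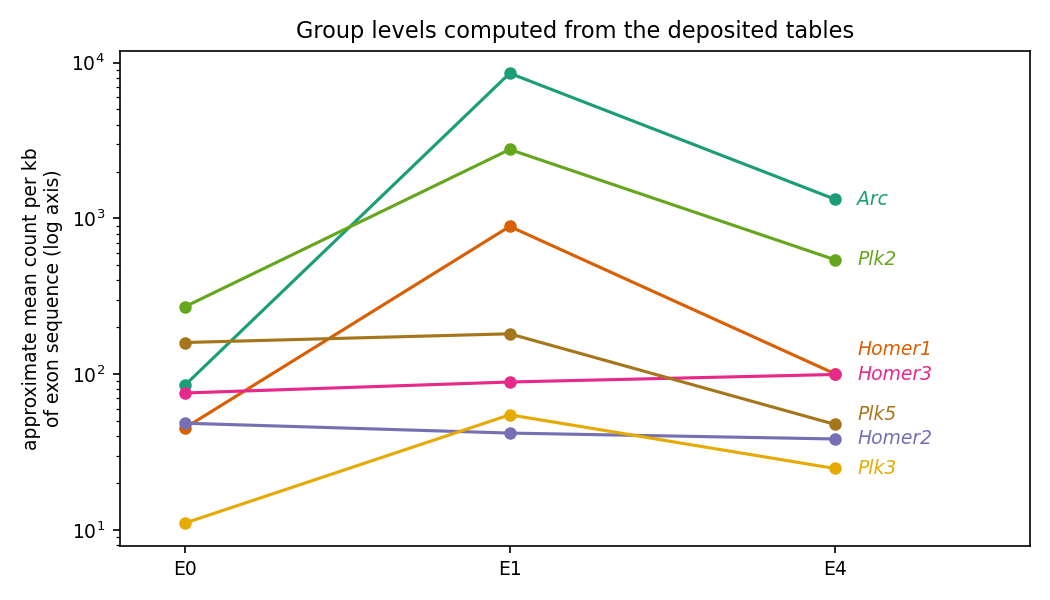
Approximate mean count per kb of annotated exon sequence (log axis) in E0, E1 and E4, 1 line per gene, computed from the deposited mean counts and fold changes, with E0 taken from the table for E1. Arc, Plk2, Homer1 and Plk3 peak in E1, Plk5 drops in E4, and Homer2 and Homer3 change least.

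The genes with the most similar pattern were taken as the 3 at the smallest distance in both log2 fold changes, over 2 comparisons, among 9338 genes averaging 50 counts or more in each table, without predicted, histone, small RNA and ribosomal protein genes. Nearest to Arc was Atf3, a stress-induced transcription factor gene, at 5.91 ± 0.26 in E1 and 2.20 ± 0.30 in E4 in the authors' deposited tables. The distance of 1.42 shows that no gene lay close to Arc; Cenpa (1.74) and the retinoic acid receptor gene Rara (1.79) were next. Nearest to Homer1 were the potassium channel gene Kcnj12, at 4.13 ± 0.28 in E1 and 1.42 ± 0.27 in E4, and the early transcription factor genes Nr4a1 and Egr1, in the authors' deposited tables. Nearest to Plk2 was the AP-1 gene Junb, at 3.31 ± 0.13 in E1 and 0.87 ± 0.13 in E4 in the authors' deposited tables, before the noncoding RNA gene Neat1. Plk3 lay nearest to Nab2, at 2.27 ± 0.13 in E1 and 1.19 ± 0.12 in E4 in the authors' deposited tables, then to the spine apparatus gene Synpo and to Fam107b. Plk5 lay nearest to Lamp5, at 0.14 ± 0.19 in E1 and -1.68 ± 0.17 in E4 in the authors' deposited tables, then to Capn5 and St6galnac3. Homer2 (Vps53, Fech, Rabl6) and Homer3 (Nmd3, Itch, Pikfyve) lie among the many genes of small change. When the distance was taken over the test statistics, 0 of these 21 neighbours were kept.

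Partners of these proteins were followed in 6 lists of 98 genes in all, 97 of them tested. In E1 33 were raised and 23 lowered, and in E4 29 were raised and 23 lowered. Centring on the reference genes turned the E4 split to 24 raised and 35 lowered. Shares called in each list stand beside 35.5% of all genes in E1 and 39.0% in E4, and the median log2 fold change of all genes tested was 0.02 in E1 and -0.01 in E4. All genes tested include rarely read ones, which are harder to call, while most lists hold mainly well-read genes. No share at like counts was computed, so a higher share in a list cannot be read as a trait of it. Dnm3 and Dbn1 are in 2 lists each.

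Of 21 Arc partners and regulators (endocytic proteins, kinases and ubiquitin ligases) 6 were raised and 5 lowered in E1 (median log2 fold change -0.10), and 6 raised and 6 lowered in E4 (median 0.04). Ap2b1, a subunit of the AP-2 clathrin adaptor, rose in E4 at 1.49 ± 0.08 (adjusted p = 1.85e-78) in the authors' deposited table, and in E1 it stood at 0.46 ± 0.09 there. The dynamin gene Dnm1 fell in E4 at -0.63 ± 0.08 and rose in E1 at 0.49 ± 0.08 in the authors' deposited tables. The endophilin gene Sh3gl2 did likewise, with -0.73 ± 0.13 in E4 and 1.14 ± 0.13 in E1 in the authors' deposited tables. Notch1, whose signalling is known to need Arc, rose in E4 at 1.29 ± 0.13 in the authors' deposited table and was not called in E1.

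Of 21 Homer binding partners 5 were raised and 5 lowered in E1 (median 0.06), and 2 raised and 6 lowered in E4 (median -0.14). The scaffold gene Shank1 rose in E4 at 0.74 ± 0.10 in the authors' deposited table. The inositol trisphosphate receptor gene Itpr1 fell at -0.71 ± 0.10 in E4 and at -0.65 ± 0.10 in E1 in the authors' deposited tables. Cacna1d (-0.69 ± 0.14) and Dnm3 (-0.57 ± 0.10) fell in E4 in the authors' deposited table. The metabotropic glutamate receptor gene Grm5 rose at 0.43 ± 0.11 in E1 in the authors' deposited table and was not called in E4 (-0.09 ± 0.09).

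Of 18 substrates and partners of Plks 5 were raised and 6 lowered in E1 (median -0.11), and 5 were raised and 5 lowered in E4 (median -0.09). Rasgrf2, a Ras activator, fell at -1.95 ± 0.09 in E4 (adjusted p = 1.23e-100) and at -1.06 ± 0.11 in E1 in the authors' deposited tables. The small GTPase gene Rap2a fell at -1.26 ± 0.11 in E4 and rose at 0.64 ± 0.10 in E1 in the authors' deposited tables. Sipa1l1, the gene of SPAR, stood at -0.03 ± 0.10 in E1 and was not called, and rose at 0.54 ± 0.09 in E4 in the authors' deposited tables. Its relative Sipa1l3 rose at 0.82 ± 0.10 in E4 and fell at -0.58 ± 0.12 in E1, and Sipa1l2 fell at -0.67 ± 0.11 in E4 and -1.13 ± 0.16 in E1, in the authors' deposited tables. The mitotic kinase genes Plk1 and Plk4 were rarely read and not called, with Plk4 at -0.32 ± 0.36 in E4 and Plk1 at -0.32 ± 0.53 in E1 in the authors' deposited tables.

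Of 26 further genes of synaptic scaling 25 were tested, with 12 raised and 4 lowered in E1 (median 0.55) and 11 raised and 4 lowered in E4 (median 0.27). Nptx2, a secreted pentraxin that clusters AMPA receptors, rose in both comparisons. It stood at 4.80 ± 0.17 in E1 and 3.10 ± 0.15 in E4 in the authors' deposited tables. Bdnf was raised in both as well, at 2.62 ± 0.12 in E1 and 0.43 ± 0.12 in E4 there. Rara, which carries retinoic acid signals to synaptic translation, rose at 4.96 ± 0.24 in E1 and 3.98 ± 0.19 in E4. The pentraxin receptor gene Nptxr rose at 1.68 ± 0.19 in E1 and 1.90 ± 0.15 in E4 in the authors' deposited tables. Of the AMPA receptor subunit genes, Gria1 was lowered at -0.31 ± 0.10 in E1, while Gria2 (0.55 ± 0.10), Gria3 (0.99 ± 0.12) and Gria4 (1.12 ± 0.19) rose, in the authors' deposited table. In E4 Gria1 fell again, at -0.35 ± 0.09 in the authors' deposited table, and the other subunit genes were not called (Gria2 0.18 ± 0.09, Gria3 0.25 ± 0.12, Gria4 -0.04 ± 0.17). Tnf averaged 0.179 counts for E1 in the authors' deposited table and has no adjusted p.

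Of 12 factors known to act at the Arc enhancer 5 were raised and 4 lowered in E1 (median -0.10), and 5 raised and 3 lowered in E4 (median 0.27). Egr1 rose at 3.72 ± 0.16, Npas4 at 2.98 ± 0.32 and Srf at 1.41 ± 0.13 in E1 in the authors' deposited table. Elk1, a partner of Srf, fell there at -1.47 ± 0.13. Creb1 rose at 0.50 ± 0.15 in E1 and 0.86 ± 0.11 in E4 in the authors' deposited tables. In E4 Egr1 (0.71 ± 0.12) and Srf (0.59 ± 0.10) were still raised and Elk1 (-0.59 ± 0.11) still lowered. Npas4 was not called in E4 (0.33 ± 0.30, adjusted p = 0.427) in the authors' deposited table.

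**Figure D5:**
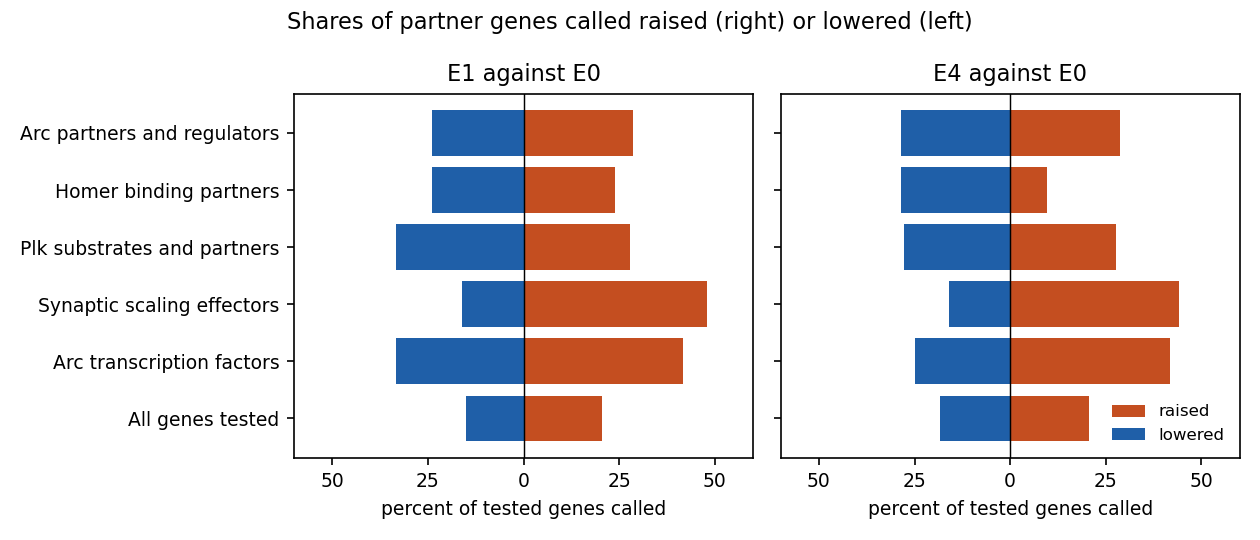
Percent of tested genes called raised (orange, to the right of 0) or lowered (blue, to the left) in E1 (left panel) and E4 (right panel) for 5 partner lists and, in the bottom row, for all genes tested. The list of scaling genes shows the longest bars to the right in both panels, with 12 and 11 of 25 genes raised. The row of all genes is not matched to the lists in mean count.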

How the data were processed

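Libraries of total RNA from the dentate gyrus of single mice were grouped as E0, E1 and E4 by sample title. Reads were processed with TopHat2 and DESeq2 on mm9, per the submitters' processing notes, without versions. Which counting program, annotation, strand setting and model formula applied was not given in the sources used here. Per the file headers, the deposited signal is a mean over 6 libraries of counts scaled by size factors (mean count here). The log2 fold changes and SEs are the authors' estimates per the file headers, and appear shrunken toward 0. The deposited score is the log2 fold change over its SE, and the deposited p-values were adjusted by the authors with Benjamini-Hochberg (recomputed within 3.6e-07). The E0 group is unnamed in the tables and was taken as the group both share.

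With no counts per library, no count test was run. Group levels are 2 times the mean count over 1 plus the fold, and this fold times that. Size factors came from genes with a single read; those of the E0 libraries differ 1.88 to 1.90 times between the tables. Reads are levels times summed size factors, approximate. The test of E4 against E1 ignores the shared E0 group. It was run on simulated data with normal errors of the deposited size, a shared E0 error and no shrinkage. A shared error of this kind can only make the test stricter, so that run does not show how shrinkage affects it. Named partners are up to 4 per list with the smallest adjusted p, plus Grm5, the Gria genes, Sipa1l1, Creb1 and Tnf, named after their values were seen; a few results are not reported here. Members, lists and tests were chosen with earlier results of these data known. Python 3.11.15, pandas 2.3.3 and scipy 1.17.1 were used.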

Additional observations from a re-analysis of the deposited data

Results flagged for a closer look

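The change in E4 differed from that in E1 for 5 genes when the deposited log2 fold changes were subtracted and tested. The difference was -3.24 for Arc, -3.11 for Homer1, -2.34 for Plk2, -1.08 for Plk3 and -1.91 for Plk5. With the E0 level of the table for E1, chosen after the data were seen, that of Arc was -2.64 and that of Homer1 -3.14. For the first 4 it is a smaller rise in E4 than in E1, and for Plk5 a fall in E4 beside no call in E1. The adjusted p, over 12769 genes, was highest for Plk3 (0.0335).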

How the results depend on the processing

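Of 101 values recomputed for the 7 genes and their count in the test of E4 against E1, 98 kept their direction and side of the threshold. The other 3 were Homer2 and Homer3 in E4 at an adjusted p below 0.01 (0.0104 and 0.0128; Homer2 ranged from 0.000325 to 0.0131 over its alternatives) and Homer3 in E4 after centring on the reference genes (0.26, adjusted p = 0.101). That centring moved the median of all genes by 0.12 in E4 and gave 35 lowered partner genes there in place of 23; centring on the median of well-read genes moved values by 0.02. The count of called genes was 4 in E1 under all 5 settings and 5 to 7 in E4, and 4 of the 5 differences were called among genes averaging 50 counts or more, where Plk3 is missing. An assumed correlation of 0.5 between both estimates left 5 differences called, but a positive correlation can only lower the joint SE. That setting could therefore not remove a call and does not test them. In the test of E4 against E1 it moved the adjusted p of Plk3 from 0.0335 to 0.00105. The 98 values above include these called differences. They also include genes already not called, which a stricter cut of 0.01 could not change. With the E0 level of the table for E1 the log2 fold change of Arc in E4 was 4.02 in place of 3.41, and its difference from E1 -2.64 in place of -3.24; the cause was not tested. Leaving out single mice was not run, since the tables hold no values per library. No paired analysis was possible because the tables carry no replicate numbers. Depth limits Plk3, with about 75.8 E0 reads.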

Other observations

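Some partner genes moved one way in E1 and the other in E4; these were chosen after their values were seen. Cnih3, an auxiliary subunit of AMPA receptors, stood at -1.21 ± 0.15 in E1 and at 0.79 ± 0.12 in E4 in the authors' deposited tables, a difference of 2.0 ± 0.19 (adjusted p = 1.49e-23). For Sipa1l3, with -0.58 in E1 and 0.82 in E4 in the authors' deposited tables, the difference was 1.40 ± 0.16. Among calcium-dependent kinases that act in scaling, Camk4 stood at 1.14 ± 0.14 in E1 and -0.33 ± 0.13 in E4, and its activator Camkk1 at -0.31 ± 0.12 in E1 and 0.67 ± 0.09 in E4, in the authors' deposited tables. The second activator gene Camkk2 was lowered at -0.91 ± 0.10 in E4 and not called in E1 in the authors' deposited tables. Nptx1 stood at 0.04 ± 0.11 in E1, not called, and rose at 1.25 ± 0.10 in E4 in the authors' deposited tables. Of 95 partner genes averaging 10 counts or more in each table, 22 showed a higher and 28 a lower change in E4 than in E1, beside 17.7% and 19.0% of all genes. Those shares are not matched in mean count.

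The same E0 libraries enter both deposited tables, so the E0 level computed from each can be set side by side. Over 9818 genes averaging 50 counts or more in each, the level from the table for E4 over that from the table for E1 had a median of 1.0, and 90% of genes lay between 0.976 and 1.02. Arc had the highest ratio of all, 1.47, and the next was Megf11 at 1.22. The other 6 genes lay between 0.96 and 1.01. These levels are computed from shrunken fold changes. The size of the Arc rise in E4 thus depends on which table gives its baseline, 10.7-fold or 16.2-fold.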
